A study of Homo sapiens with 6 samples.

Results

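MYC, 4 partners or antagonists of MYC, and 32 genes that make and process ribosomal RNA in the nucleolus were compared between TTC3 shRNA and control shRNA cells. The set of 37 genes was a list of symbols, matched to the deposited gene table, which holds 62700 genes. All 37 were present, and all 37 passed the filter on low counts that left 24325 genes tested. The rule for the set used no measured value. The list was drawn up with earlier results of these data known, so it may not be independent of them. The cells were PC3, an established human line from prostate cancer. One group carried a short hairpin RNA (shRNA, which directs the degradation of a matching messenger RNA) against TTC3, an E3 ubiquitin ligase gene, and its genotype was given as a TTC3 knockdown. The other carried a control hairpin, and its genotype was given as wild type. Both groups grew in the same serum-containing medium, and no drug or time course was recorded. Each group had 3 libraries made from total RNA after ribosomal RNA had been removed.

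MYC binds DNA as a dimer with MAX, at a short palindrome called the E-box, and it activates genes for cell growth. MXD1, MXD4 and MNT also pair with MAX and repress genes through the same E-box. Ribosomes are built in the nucleolus: RNA polymerase I transcribes the ribosomal RNA precursor, small nucleolar ribonucleoproteins (snoRNPs) modify it, and assembly factors cut and fold it into the small and the large subunit. Many genes of these steps are known targets of MYC, and tumour cells often express them at high levels.

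The sequences below show the E-box, the motif bound by MYC and its antagonists, in the promoters of members whose RNA was higher in TTC3 shRNA cells. Promoter windows of RefSeq genes on GRCh38.p14, from 250 bases before to 50 bases after each start, were at hand for 31 of the 37 members. MYC, BOP1, RRP12, RRP1B, NOLC1 and NOP58 were not among them. Each line gives 30 bases, 5′ to 3′ on the strand named below, with the E-box CACGTG in capitals.
GAR1: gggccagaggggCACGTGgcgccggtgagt
FBL: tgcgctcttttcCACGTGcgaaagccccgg
RRP9: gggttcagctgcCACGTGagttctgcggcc
NOP14: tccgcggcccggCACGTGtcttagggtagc
PES1: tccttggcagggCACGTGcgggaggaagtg
NOP2: gctaggtccggattgCACGTGgagggccgc
BYSL: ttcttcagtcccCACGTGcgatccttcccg
The GAR1 stretch lies at chr4:109815781-109815810 on the plus strand and that of BYSL at chr6:41921515-41921544 on the plus strand. The other 5 are on the minus strand, for FBL at chr19:39846356-39846385, for RRP9 at chr3:51941892-51941921, for NOP14 at chr4:2963374-2963403, for PES1 at chr22:30591880-30591909 and for NOP2 at chr12:6568242-6568271.

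The E-box was found in 16 of the 31 members with a window (51.6%), as the exact letters CACGTG, which read the same on both strands. It was found in 11.7% of 13305 tested genes with a window and in 8.77% of all 27305 genes with one. It was also found in 12 of 22 other genes known to be activated by MYC (54.5%) and in 29 of 104 other ribosome assembly genes (27.9%). In 9 of the 16 members the motif began 4 to 36 bases after the start given by RefSeq. For GAR1 and NOP14 among these 9, the bases after that start were not found in any GENCODE 29 transcript of the gene, so their distance is less certain. The motif was present in 7 of the 18 members past the gene test described below and in 9 of the 13 that did not pass. The members holding it that did not pass were MYBBP1A, UTP20, WDR43, NAT10, GNL3, MXD4, MNT, DDX21 and UTP4. A variant of the motif, CACGCG or its reverse complement, which shares no exact match with CACGTG, was in 9 of the 31 members, against 20.8% of tested genes with a window. A match describes the letters in these windows, and binding was not measured.

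The 6 libraries summed to 143246356 to 155526861 estimated gene counts. TTC3 itself was at 228, 183 and 178 CPM (counts scaled to a common library size, with TMM factors) in TTC3 shRNA libraries 1, 2 and 3, against 695, 684 and 680 CPM in control shRNA libraries 1, 2 and 3, a mean of 28.6% of control. The lowest value of the keratin genes KRT8, KRT18 and KRT19 in any library was 139 CPM, while KLK3, CD3E and HBB had no counts. COL1A1, a collagen chain of fibroblasts, was at 75.9 ± 29.6 CPM in TTC3 shRNA cells and 19.0 ± 0.631 CPM in control cells (SD, n = 3 each), and DCN, another fibroblast marker, had at most 8 counts in any library. The labels do not say whether the libraries came from separate cultures or how many hairpin sequences or clones were used, so every p-value here reflects the spread among these 6 libraries alone, which may be technical. In RNA from whole cultures, fewer cells of a kind and less RNA per cell cannot be told apart.

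The TTC3 shRNA libraries were not alike. By the median over genes of the chi-square between 2 libraries, scaled by total counts without TMM factors, library 1 of that group lay about as far from the controls as from its own group. Its distance was 30.9 to 31.8 times sampling noise from the control libraries, and 27.1 and 34.0 times from TTC3 shRNA libraries 2 and 3. Libraries 2 and 3 differed from each other by 7.37 times, and the controls among themselves by 3.96 to 5.02 times. With TMM scaling, library 1 stood on the side of its own group on the first principal component, the main axis of variation (76.1% of the variance). It was at -19.0 there, libraries 2 and 3 at -37.5 and -41.4 and the controls at 32.0 to 33.1. On the second component (13.3%) it was at 29.8, and all other libraries at -13.0 to 0.13. Another gene overlaps the loci of POLR1C, UBTF, NHP2, NOP14, PES1, BOP1, WDR12, NIP7 and NOP16 on the opposite strand and that of NOP2 on the same strand, and NPM1 has many processed pseudogenes, so counts of these members are less certain.

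Of the 37 members, 19 were higher in TTC3 shRNA cells, 1 was lower and 17 did not pass the test (edgeR quasi-likelihood test, Benjamini-Hochberg adjusted p below 0.05 over all tested genes). Among all tested genes 33.6% passed, with 15.7% higher and 17.8% lower. All 37 members had a mean of at least 5 CPM, and among the 11662 genes at that level 25.4% were higher and 18.0% lower. The 1 member that fell was MXD1, and none of the 32 nucleolar members fell. The median log2 fold change (TTC3 shRNA over control shRNA) was 0.31 over the nucleolar members and 0.26 over all 37. It was 0.06 over the genes with a mean of at least 5 CPM and -0.02 over all tested genes. The summed level of the members was 5854, 6578 and 6681 CPM in TTC3 shRNA libraries 1, 2 and 3, against 4858, 4863 and 4841 CPM in control shRNA libraries.

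In 28 members all 3 TTC3 shRNA libraries lay above all 3 controls, and in 1, MXD1, all lay below. Over all tested genes the groups did not overlap in 50.3%, with 23.3% above and 27.0% below. With scaling by library totals alone, 12 members were higher and 1 lower. Of all tested genes 10.4% were higher in that fit, against 15.7% with TMM. The median over all tested genes shifted by -0.13, and the share of higher genes among all calls was 32.0%, against 46.9% with TMM. The median of the members less that of all tested genes, many of them below 5 CPM, was 0.28 under either scaling.

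**Figure D1:**
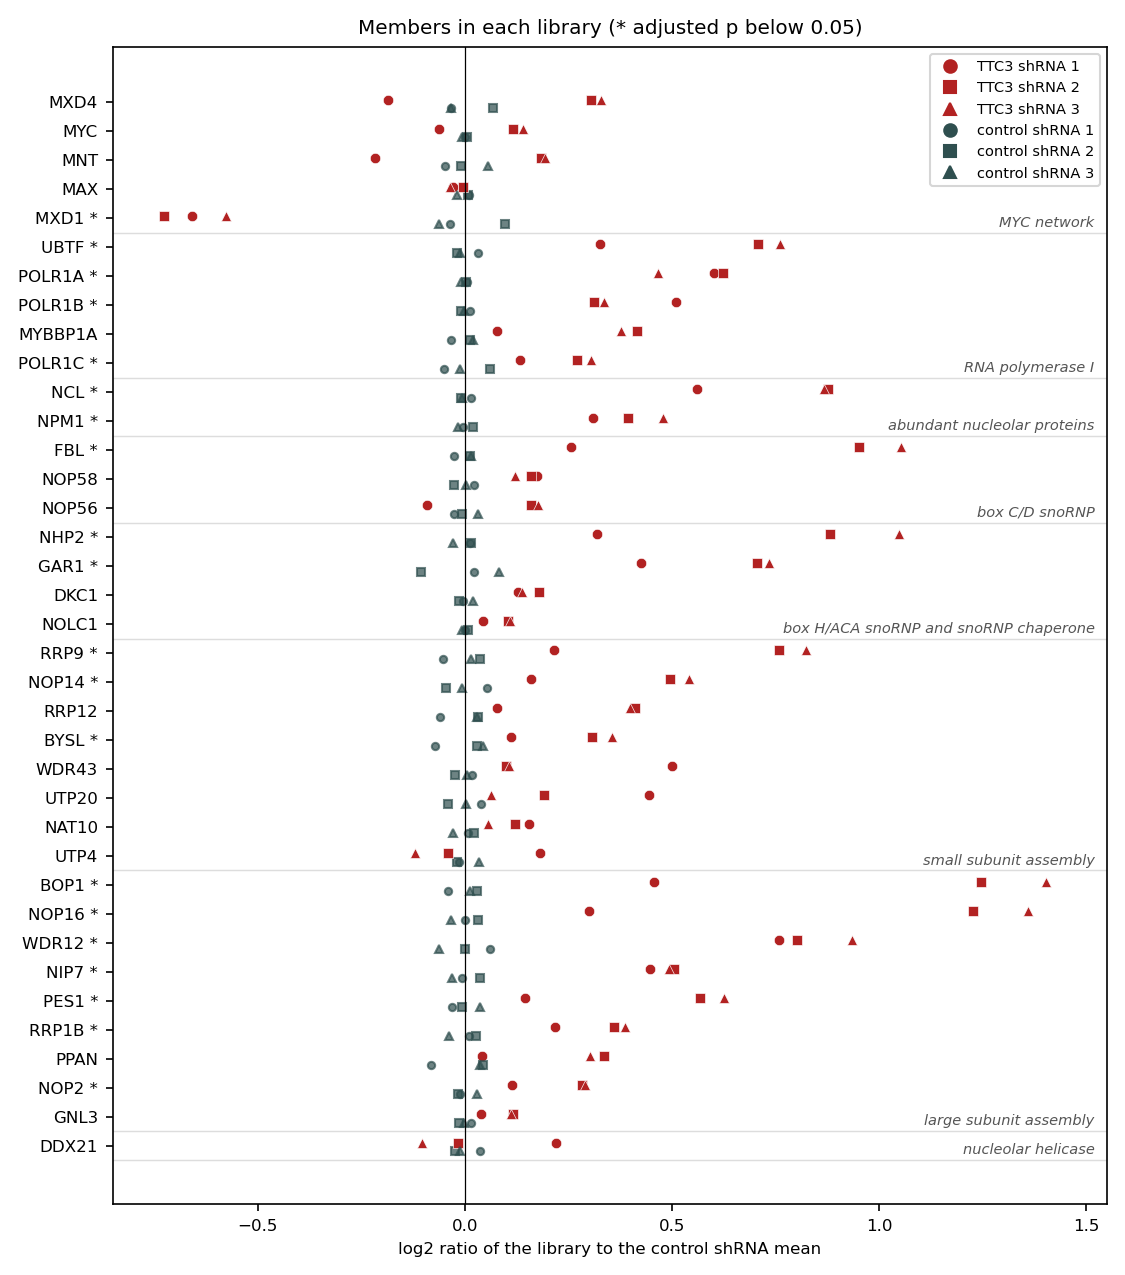
Log2 ratio of each library to the control shRNA mean for the 37 members, grouped by role, with TTC3 shRNA libraries in red above control shRNA libraries in dark grey for each gene. Circles, squares and triangles are libraries 1, 2 and 3, and asterisks mark the 20 members past the gene test: the TTC3 shRNA libraries lie right of all controls in 28 members and left of them in MXD1.

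The transcription factors at the head of the set were considered first. MYC RNA did not differ beyond the spread between libraries, nor did that of its partner MAX. Of the MAX-binding repressors, MXD1 fell to 63.5% of control, and MXD4 and MNT did not pass the test.

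MYC (ENSG00000136997.22, chromosome 8) was at 207, 234 and 238 CPM in TTC3 shRNA libraries 1, 2 and 3, against 216, 217 and 215 CPM in control shRNA libraries. Library 1 lay below all controls and libraries 2 and 3 above them, so the groups overlapped. The log2 fold change was 0.07 ± 0.07 (SE, adjusted p = 0.508, edgeR). Without TTC3 shRNA library 1 it was 0.15 ± 0.03 and passed the test (adjusted p = 0.00477, edgeR). It was -0.06 when libraries were scaled by their totals alone.

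MAX, the obligate partner of MYC and of the MXD proteins, was at 126, 129 and 126 CPM in TTC3 shRNA libraries, against 129.8, 129 and 127 CPM in control libraries. These values overlapped, with a log2 fold change of -0.02 ± 0.05 (adjusted p = 0.773, edgeR).

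MXD1 (ENSG00000059728.11, GRCh38 chr2:69897688-69942945, plus strand), which with MAX competes with MYC, was at 8.70, 8.30 and 9.21 CPM in TTC3 shRNA libraries, against 13.4, 14.7 and 13.1 CPM in control libraries. All 3 TTC3 shRNA libraries lay below all controls. Its log2 fold change was -0.65 ± 0.09 (SE, adjusted p = 0.00208, edgeR), and it passed in each of the 6 fits that left out 1 library, with values of -0.68 to -0.60. Within 5 Mb of MXD1, 36 of 67 genes with a mean of at least 5 CPM were higher and 1 was lower. Their median log2 fold change was 0.33, so the fall of MXD1 ran against its neighbours. The MXD1 locus overlaps SNRNP27 on the same strand, and how the counting divided reads between them is not given in the sources used here.

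MXD4 was at 39.1, 55.0 and 55.9 CPM in TTC3 shRNA libraries, against 43.5, 46.7 and 43.5 CPM in control libraries. MNT was at 24.7, 32.6 and 32.8 CPM in TTC3 shRNA libraries, against 27.8, 28.5 and 29.9 CPM in control libraries. In both genes library 1 lay below all controls and libraries 2 and 3 above them. MXD4 had a log2 fold change of 0.17 ± 0.14 (adjusted p = 0.386, edgeR) and MNT one of 0.06 ± 0.12 (adjusted p = 0.706, edgeR). Without TTC3 shRNA library 1 both passed, at 0.33 ± 0.04 for MXD4 and 0.20 ± 0.04 for MNT (adjusted p = 0.000274 and 0.00501, edgeR).

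**Figure D2:**
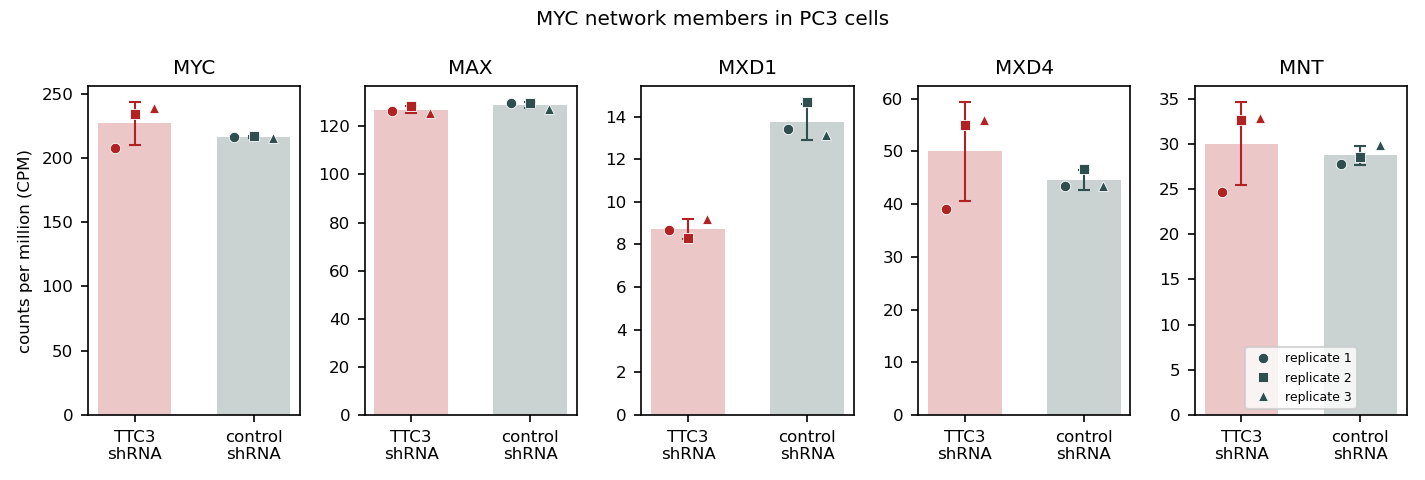
Level of each MYC network member in CPM, with TTC3 shRNA libraries left of control shRNA libraries. Bars are means with SD over 3 libraries and symbols are single libraries: MXD1 lies at 8.30 to 9.21 CPM in TTC3 shRNA cells and 13.1 to 14.7 CPM in control cells, and TTC3 shRNA replicate 1 is the lowest library for MYC, MXD4 and MNT.

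At the level of annotated transcripts, 119 transcripts of the members were found in GENCODE 29 and 106 were tested. POLR1A transcript ENST00000263857.11 was the 1 past the test, where 3.99% of all tested transcripts passed, 1.39% higher and 2.60% lower. It was at 226 ± 13.5 CPM in TTC3 shRNA cells and 155 ± 1.33 CPM in control cells (SD, n = 3 each; adjusted p = 0.0197, edgeR). Without TTC3 shRNA library 2, or without control library 2 or 3, no member transcript passed, and without TTC3 shRNA library 1 there were 18. In the same order, 391, 141, 156 and 6765 of all tested transcripts passed, against 2148 with all 6 libraries. The transcript test also missed transcripts changed by known folds in simulated data. Far fewer transcripts were changed there than passed here, so that outcome does not measure what the test missed in these libraries. A transcript short of the threshold is not shown to be unchanged. The leading MYC transcript, ENST00000377970.6, held 51.8% ± 2.29 of the MYC count in TTC3 shRNA cells and 56.2% ± 4.50 in control cells, with a log2 fold change of -0.08 ± 0.09 (edgeR adjusted p = 0.711). MAX was divided among more transcripts, with 34.0% ± 3.87 on ENST00000284165.10 in TTC3 shRNA cells and 41.5% ± 5.34 in control cells. MXD1 ENST00000264444.7 was at 7.61 ± 1.49 CPM in TTC3 shRNA cells and 11.6 ± 0.619 CPM in control cells, short of the transcript threshold (adjusted p = 0.167, edgeR). MXD4 ENST00000337190.7 and MNT ENST00000174618.5 carried at least 99.5% of the count of their gene in every library, so their transcript values repeat those of the genes.

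Of the 5 members of RNA polymerase I transcription, 4 were higher and none lower, with a median log2 fold change of 0.39. POLR1A (ENSG00000068654.17, chr2:86020216-86106155, minus strand), the largest subunit, was at 242, 245 and 220.1 CPM in TTC3 shRNA libraries, against 159.9, 159.7 and 158 CPM in control libraries. Its 3 TTC3 shRNA values lay well clear of the controls, and its log2 fold change was 0.57 ± 0.07 (SE, adjusted p = 0.00104, edgeR).

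UBTF, the factor that holds ribosomal genes in an open state, was at 231, 301 and 313 CPM in TTC3 shRNA libraries, against 188, 182 and 183 CPM in control libraries. Its groups did not overlap, although libraries 2 and 3 stood farther from the controls than library 1 (log2 fold change 0.61 ± 0.12, adjusted p = 0.00760, edgeR). POLR1B, the second-largest subunit, was at 111, 96.9 and 98.6 CPM in TTC3 shRNA libraries, against 78.8, 77.6 and 78.0 CPM in control libraries. Here library 1 was the highest (log2 fold change 0.39 ± 0.07, adjusted p = 0.00639, edgeR).

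POLR1C, a subunit shared with RNA polymerase III, was at 37.9, 41.7 and 42.6 CPM in TTC3 shRNA libraries, against 33.4, 36.0 and 34.3 CPM in control libraries. The groups stood apart by a small margin, with a log2 fold change of 0.24 ± 0.07 (adjusted p = 0.0410, edgeR). That value was -0.01 once each library's trend with transcript length had been removed. MYBBP1A, a nucleolar MYB-binding protein that represses transcription by RNA polymerase I, had non-overlapping groups at 121, 153 and 149 CPM in TTC3 shRNA libraries, against 112, 116 and 116 CPM in control libraries, and missed the threshold (0.30 ± 0.10, adjusted p = 0.0506, edgeR).

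The abundant nucleolar proteins nucleolin and nucleophosmin were both higher. NCL (nucleolin, ENSG00000115053.17, chr2:231453531-231483641, minus strand), which binds ribosomal RNA precursors, was at 727, 904 and 898 CPM in TTC3 shRNA libraries, against 498, 489.8 and 491 CPM in control libraries. NPM1 (nucleophosmin), a histone and ribosomal protein chaperone, was at 1135, 1205 and 1277 CPM in TTC3 shRNA libraries, against 914, 929 and 906 CPM in control libraries. All TTC3 shRNA libraries lay above all controls in both genes. The log2 fold changes were 0.77 ± 0.10 for NCL and 0.40 ± 0.07 for NPM1 (SE, adjusted p = 0.00136 and 0.00487, edgeR).

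The snoRNP proteins act in the chemical modification of ribosomal RNA. In the box C/D particle FBL rose and its scaffold partners NOP56 and NOP58 did not pass the test. In the box H/ACA particle NHP2 and GAR1 rose, and DKC1 did not pass. Differences between members of a particle were not tested.

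FBL (fibrillarin, ENSG00000105202.9, chr19:39834458-39846414, minus strand), the methyltransferase of the box C/D particle, was at 96.1, 156 and 167 CPM in TTC3 shRNA libraries, against 79.1, 81.1 and 81.3 CPM in control libraries. Library 1 stood between the controls and libraries 2 and 3. The log2 fold change was 0.79 ± 0.19 (SE, adjusted p = 0.0186, edgeR), and 1.02 ± 0.04 without library 1. NOP56 was at 166 ± 16.7 CPM in TTC3 shRNA cells and 157 ± 3.18 CPM in control cells (SD, n = 3 each), with library 1 below all controls (0.09 ± 0.08, adjusted p = 0.468, edgeR). NOP58 was at 59.7 ± 1.11 CPM in TTC3 shRNA cells and 53.8 ± 0.901 CPM in control cells, without overlap and short of the threshold (0.15 ± 0.05, adjusted p = 0.0707, edgeR).

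NHP2 (ENSG00000145912.10, chr5:178149460-178153967, minus strand), a core protein of the box H/ACA particle and of telomerase, was at 91.7, 135 and 152 CPM in TTC3 shRNA libraries, against 74.1, 74.3 and 72.0 CPM in control libraries. GAR1, another core protein, was at 8.60, 10.4 and 10.7 CPM in TTC3 shRNA libraries, against 6.50, 5.95 and 6.78 CPM in control libraries. In both genes library 1 was the lowest of its group and still above all controls. Their log2 fold changes were 0.78 ± 0.17 for NHP2 and 0.63 ± 0.12 for GAR1 (SE, adjusted p = 0.0131 and 0.00727, edgeR).

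DKC1 (dyskerin), the pseudouridine synthase of the same particle, was at 109 ± 2.05 CPM in TTC3 shRNA cells and 98.1 ± 1.18 CPM in control cells (0.15 ± 0.05, adjusted p = 0.0709, edgeR). NOLC1, a chaperone that shuttles snoRNPs to the nucleolus, was at 149 ± 3.69 CPM in TTC3 shRNA cells and 141 ± 0.673 CPM in control cells (0.09 ± 0.06, adjusted p = 0.271, edgeR). Neither gene had overlapping groups, and neither passed.

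Of the 8 members that assemble the small subunit, 3 rose and none fell, and the median log2 fold change was 0.25. RRP9, a protein of the U3 snoRNP, which acts in early cleavage of the precursor, was at 64.7, 94.3 and 98.6 CPM in TTC3 shRNA libraries, against 53.8, 57.1 and 56.3 CPM in control libraries. NOP14, which belongs to the small subunit processome, was at 65.5, 82.6 and 85.3 CPM in TTC3 shRNA libraries, against 60.9, 56.8 and 58.3 CPM in control libraries. BYSL (bystin), needed for late maturation of the small subunit, was at 51.7, 59.3 and 61.3 CPM in TTC3 shRNA libraries, against 45.6, 48.9 and 49.4 CPM in control libraries. In each of these, library 1 lay nearest to the controls without overlapping them. The log2 fold changes were 0.62 ± 0.15 for RRP9, 0.41 ± 0.11 for NOP14 and 0.26 ± 0.08 for BYSL (SE, adjusted p = 0.0199, 0.0242 and 0.0458, edgeR).

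Of the 5 small subunit members that did not pass, UTP20, WDR43, UTP4 and NAT10 were highest in TTC3 shRNA library 1, and RRP12 was lowest there. WDR43, a processome protein, was at 155, 117 and 118 CPM in TTC3 shRNA libraries, against 111, 108 and 109.9 CPM in control libraries (0.25 ± 0.11, adjusted p = 0.134, edgeR). UTP20, a very large scaffold of the processome, was at 233, 196 and 179 CPM in TTC3 shRNA libraries, against 176, 167 and 172 CPM in control libraries (0.24 ± 0.10, adjusted p = 0.109, edgeR). RRP12, known from yeast to act in the export of subunits, was at 68.8, 86.7 and 86.0 CPM in TTC3 shRNA libraries, against 62.5, 66.6 and 66.5 CPM in control libraries (0.30 ± 0.10, adjusted p = 0.0520, edgeR). NAT10, the acetyltransferase of small subunit RNA, and UTP4, a processome protein, had log2 fold changes of 0.11 ± 0.06 and 0.01 ± 0.09 (adjusted p = 0.180 and 0.926, edgeR), and UTP4 was the 1 of the 8 whose groups overlapped.

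Large subunit assembly had the most members past the test, 7 of 9 higher and none lower, with a median log2 fold change of 0.46. The PES1, BOP1 and WDR12 proteins form a complex, known as PeBoW, that processes the large subunit precursor, and all 3 genes rose. BOP1 (ENSG00000261236.8, chromosome 8) was at 205, 354 and 395 CPM in TTC3 shRNA libraries, against 145, 152 and 151 CPM in control libraries. WDR12 (ENSG00000138442.11, chr2:202874782-203014798, minus strand) was at 70.1, 72.2 and 79.1 CPM in TTC3 shRNA libraries, against 43.2, 41.4 and 39.7 CPM in control libraries. PES1 was at 102, 136 and 142 CPM in TTC3 shRNA libraries, against 90.1, 91.6 and 94.3 CPM in control libraries. The 3 TTC3 shRNA libraries of WDR12 lay close together, while for BOP1 and PES1 library 1 lay far below libraries 2 and 3.

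On the log2 scale the changes were 1.09 ± 0.22 for BOP1, 0.83 ± 0.07 for WDR12 and 0.46 ± 0.12 for PES1 (SE, adjusted p = 0.00997, 0.000303 and 0.0278, edgeR). WDR12 was the 1 member past the test under every alternative setting that was run, a test against a fold of 1.5 included. Without library 1 BOP1 was at 1.34 ± 0.05 and PES1 at 0.61 ± 0.03. For WDR12, GENCODE 29 transcripts held as little as 25.6% of its count in a library, and 3 genes overlap it on the opposite strand.

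NOP16 (ENSG00000048162.22, chr5:176383938-176388975, minus strand), a large subunit factor, was at 32.8, 62.4 and 68.4 CPM in TTC3 shRNA libraries, against 26.7, 27.3 and 26.1 CPM in control libraries. Its mean was 2.05-fold that of control, with library 1 nearer the controls and libraries 2 and 3 far above (log2 fold change 1.03 ± 0.25, adjusted p = 0.0188, edgeR; 1.31 ± 0.05 without library 1). NIP7, a factor for precursor processing, was at 38.0, 39.5 and 39.2 CPM in TTC3 shRNA libraries, against 27.7, 28.6 and 27.2 CPM in control libraries. That difference was even across the TTC3 shRNA libraries (0.48 ± 0.06, adjusted p = 0.00138, edgeR).

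RRP1B, a nucleolar protein of the RRP1 family, was at 149, 164 and 167 CPM in TTC3 shRNA libraries, against 129, 130.5 and 125 CPM in control libraries (0.32 ± 0.07, adjusted p = 0.0108, edgeR). NOP2, a methyltransferase of large subunit RNA, was at 62.9, 70.6 and 71.0 CPM in TTC3 shRNA libraries, against 57.6, 57.4 and 59.2 CPM in control libraries (0.23 ± 0.07, adjusted p = 0.0377, edgeR). Both had groups that did not overlap. PPAN, a large subunit factor, was at 75.4 ± 8.18 CPM in TTC3 shRNA cells and 64.2 ± 3.13 CPM in control cells, with overlap (0.23 ± 0.09, adjusted p = 0.0926, edgeR). PPAN shares its strand and exons with the read-through gene PPAN-P2RY11, so its count is uncertain. GNL3 (nucleostemin), a GTPase, was at 197 ± 5.97 CPM in TTC3 shRNA cells and 185 ± 1.99 CPM in control cells (0.09 ± 0.06, adjusted p = 0.269, edgeR).

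DDX21, an RNA helicase that links RNA polymerase I and II transcription, was at 392, 332 and 313 CPM in TTC3 shRNA libraries, against 345, 331 and 333 CPM in control libraries. Library 1 was above the controls, library 2 among them and library 3 below them. The log2 fold change was 0.04 ± 0.09 (adjusted p = 0.767, edgeR).

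Since counts grow with transcript length, levels of different genes were set side by side per length, as TPM over protein-coding transcripts, for the 31 members with at least 80% of their count on GENCODE 29 transcripts. In control cells GNL3 was at 259.8 ± 3.04 TPM, NHP2 at 257 ± 20.1 TPM, MAX at 251 ± 11.9 TPM and MYC at 236 ± 5.37 TPM. The libraries of each of these genes overlapped those of the next in that order. The repressors were far lower, with MXD4 at 31.5 ± 1.32 TPM, MNT at 16.5 ± 0.566 TPM and MXD1 at 7.05 ± 0.433 TPM (SD, n = 3 each). In TTC3 shRNA cells NHP2 was at 420 ± 95.2 TPM, BOP1 at 348 ± 102 TPM, FBL at 303 ± 75.9 TPM, MAX at 256 ± 42.4 TPM, GNL3 at 244 ± 3.98 TPM and MYC at 208 ± 12.0 TPM. GAR1, whose protein sits in the same particle as NHP2, was at 20.9 ± 2.00 TPM in TTC3 shRNA cells and 15.3 ± 0.908 TPM in control cells, lower than every other of the 31 but MXD1 and, in TTC3 shRNA cells, MNT. Differences between groups on this scale also depend on the set of transcripts it is scaled to.

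**Figure D3:**
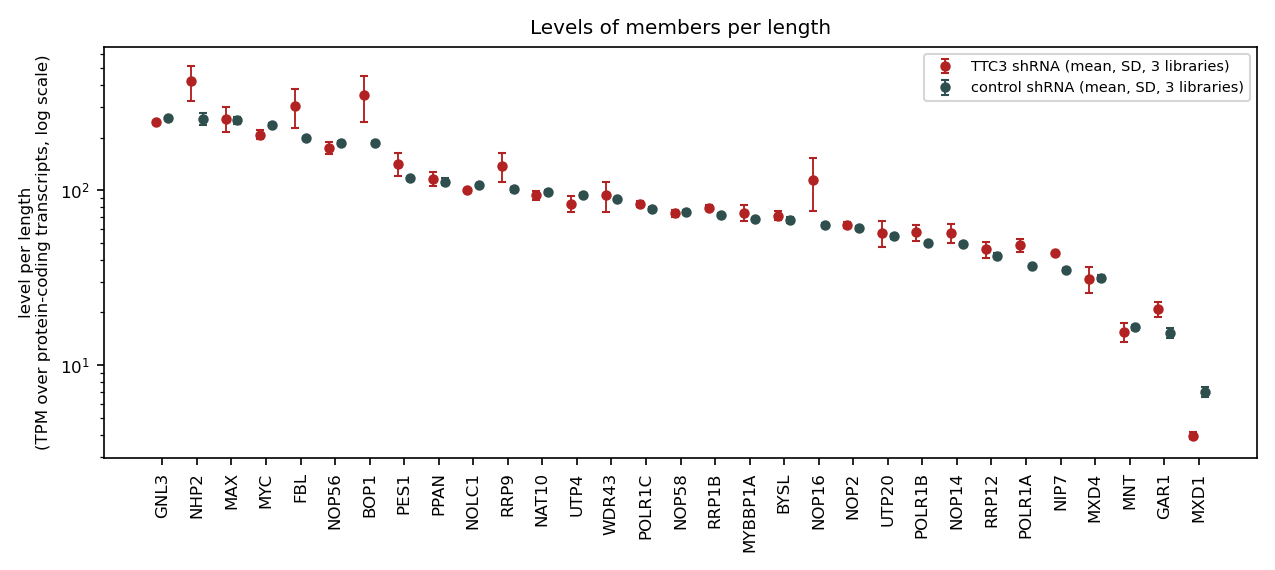
Level per length of 31 members, in TPM over protein-coding transcripts on a log axis, with TTC3 shRNA (red) left of control shRNA (dark grey) for each gene and members ordered by the control mean. Points are means and bars SD over 3 libraries: nucleolar and MYC genes span 15.3 to 259.8 TPM in control cells, and MXD1 is lowest, at 3.96 TPM in TTC3 shRNA cells and 7.05 TPM in control cells.

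The TTC3 shRNA libraries differed among themselves by gene in a way that followed base composition and length. Library 1 was the lowest of its group in 27 members and the highest in 7, which were POLR1B, NOP58, UTP4, UTP20, WDR43, NAT10 and DDX21. The gap between the mean of libraries 2 and 3 and library 1 was largest for NOP16 (0.99 on the log2 scale), BOP1 (0.87) and FBL (0.75), and most negative for WDR43 (-0.40) and UTP20 (-0.32). Over the 33 members whose count sat mainly on transcripts of known length, the gap ran with the GC content of the main transcript (Pearson r = 0.72, Spearman rho = 0.75) and against its log length (r = -0.51, rho = -0.42). These points share the same 3 libraries, and GC content and length were themselves related at r = -0.21.

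Over 10216 genes the log2 ratio to control changed by -0.03, -0.16 and -0.20 for each doubling of transcript length in TTC3 shRNA libraries 1, 2 and 3, against -0.01 to 0.01 in control libraries. With each library's trends with length and GC removed, 22 members were higher and 1 was lower, with a median of 0.20. Over all tested genes, many of them below 5 CPM, the median was -0.13. Of all tested genes 15.9% were higher in that fit. Among the members past the test, BOP1 was then at 0.70, FBL at 0.38, NHP2 at 0.32, RRP9 at 0.24, PES1 at 0.22, GAR1 at 0.42 and POLR1A at 0.69. BYSL, POLR1C and NOP2 lost the threshold, at 0.02, -0.02 and 0.10. The same 3 lost it with the length trend alone removed. How far length and GC content account for the differences between libraries was not tested.

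**Figure D4:**
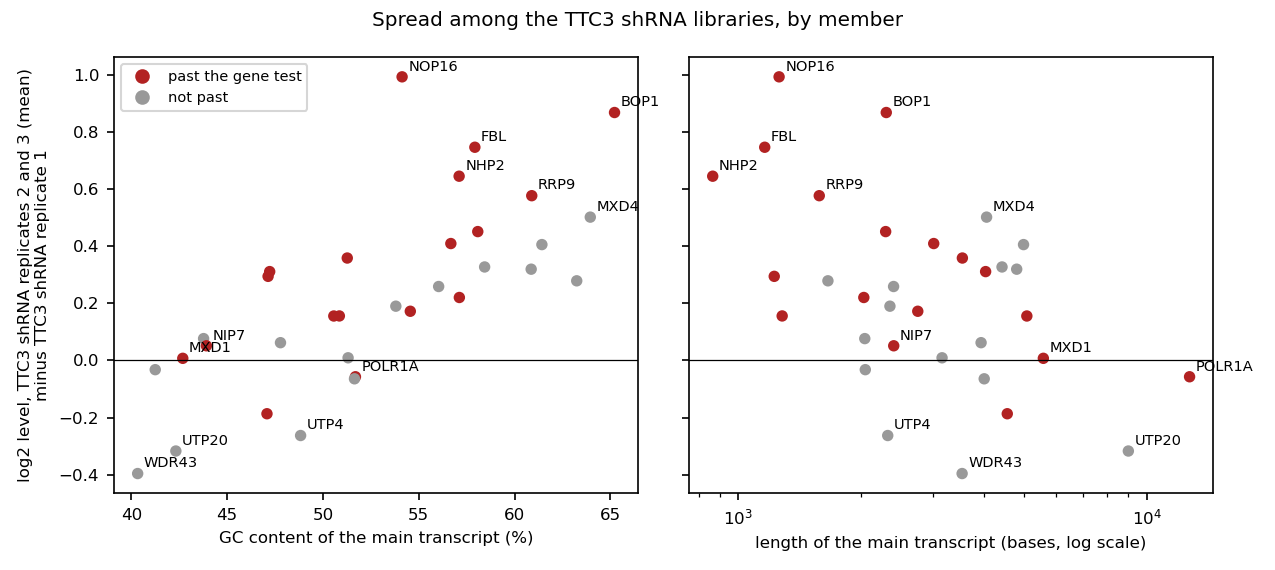
Log2 level in TTC3 shRNA replicates 2 and 3 (mean) minus replicate 1 for 33 members, against GC content (left, percent) and length (right, bases, log axis) of the main transcript. Red points are members past the gene test: the gap is 0.99 for NOP16 and 0.87 for BOP1, is near 0 for MXD1 and NIP7, and lies below 0 for WDR43 and UTP20.

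How many members passed changed with single libraries. Without TTC3 shRNA library 1 33 members were higher and 1 was lower, while MAX, UTP4 and DDX21 did not pass. In that fit 26.3% of all 25416 tested genes were higher. Besides MYC, MXD4 and MNT, the members that passed then and not with all 6 libraries were 11 nucleolar ones. Their log2 fold changes were 0.41 for MYBBP1A, 0.18 for NOP56, 0.16 for NOP58, 0.18 for DKC1, 0.12 for NOLC1, 0.42 for RRP12, 0.11 for NAT10, 0.15 for UTP20, 0.12 for WDR43, 0.34 for PPAN and 0.13 for GNL3 (adjusted p at most 0.0302, edgeR). Those of UTP20 and WDR43 were lower than with library 1, which was their highest. Without TTC3 shRNA library 2 or 3 the counts past the test were 11 and 13, and 10 without control library 1, 2 or 3. Over all tested genes 5372, 6300 and 4546 to 4633 passed in these fits, against 8165 with all 6 libraries. The share of all tested genes that were higher was 8.65%, 10.8% and 7.33% to 7.45%, against 15.7%. POLR1A, POLR1B, UBTF, NCL, NPM1, GAR1, BOP1, WDR12 and NIP7 were higher in all 6 such fits. BYSL, FBL, NOP14, NOP16, NOP2, PES1, POLR1C and RRP9 lost the threshold without any 1 of the other 5 libraries, at adjusted p of 0.0531 to 0.170 (edgeR). NHP2 lost it in 4 of the 6 fits (adjusted p up to 0.0568, edgeR), and RRP1B in 3 (up to 0.0629).

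Chromosome 2 holds 7 of the members. There 491 of 1496 tested genes were higher (32.8%), with a median log2 fold change of 0.27, and 53.4% of those with a mean of at least 5 CPM. POLR1A, POLR1B, NCL and WDR12 were the 4 members higher there, with NOP58 and WDR43 short of the threshold and MXD1 lower. Neighbours were taken as genes with a mean of at least 5 CPM within 5 Mb. Around POLR1A, POLR1B, NCL and WDR12 their median log2 fold changes were 0.22, 0.19, 0.37 and 0.27, each below the member's own. For NOP58 and WDR43 the neighbours' medians, 0.28 and 0.46, were above their own values of 0.15 and 0.25. Outside chromosome 2, 15 of 26 nucleolar members were higher, with a median of 0.30. Of the genes there with a mean of at least 5 CPM, 23.5% were higher, with a median of 0.04. Raised neighbourhoods were not limited to chromosome 2. Around the 15 members higher outside it, the neighbours' medians ran from -0.004 (GAR1) to 0.28 (BOP1). They were 0.26 for NHP2, 0.21 for RRP9 and NOP16 and 0.20 for FBL, but 0.04 for NPM1 and PES1 and 0.05 for NOP14. What part the chromosome had in the values of its 7 members was not tested.

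The rest of the pathway was read from lists that overlap none of the members. Of 121 other ribosome assembly genes, all tested, 46 were higher and 5 lower, with a median log2 fold change of 0.20. RNA polymerase I genes had 5 of 17 higher and 1 lower, beside the 25.4% higher among all tested genes with a mean of at least 5 CPM. POLR1G rose by 0.77 ± 0.12, TAF1B, of the promoter selectivity factor SL1, by 0.43 ± 0.08, and POLR1E by 0.30 ± 0.06, whereas TAF1A, also of SL1, fell by 0.25 ± 0.08 (SE, adjusted p = 0.00373, 0.00725, 0.0102 and 0.0491, edgeR).

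Other snoRNP proteins had 4 of 12 higher and none lower, those with the lowest adjusted p being SHQ1, a dyskerin chaperone, at 0.37 ± 0.06, the assembly factor ZNHIT3 at 0.36 ± 0.09 and the ATPase RUVBL1 at 0.34 ± 0.09. Small subunit genes had 21 of 48 higher and 1 lower. IMP4, of the U3 snoRNP, rose by 0.75 ± 0.07, UTP18 by 0.43 ± 0.06 and PNO1 by 0.50 ± 0.07, and UTP25 fell by 0.37 ± 0.08. Large subunit genes had 16 of 44 higher and 3 lower. The GTPase GNL3L rose by 0.72 ± 0.06, the kinase NOL9 by 0.56 ± 0.07 and the methyltransferase FTSJ3 by 0.54 ± 0.11, while the ATPase NVL fell by 0.43 ± 0.06, the GTPase GNL2 by 0.27 ± 0.06 and SPATA5 by 0.35 ± 0.10. The edgeR adjusted p of these 13 genes was at most 0.0370.

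Of 27 other genes known to be activated by MYC, 16 were higher and 2 lower, with a median log2 fold change of 0.34. ODC1, the first enzyme of polyamine synthesis, had the lowest adjusted p, 3.05e-05, at 1479.7 ± 93.0 CPM in TTC3 shRNA cells and 566 ± 6.90 CPM in control cells. HSPD1, a mitochondrial chaperonin, was at 832 ± 48.6 CPM in TTC3 shRNA cells and 493 ± 3.97 CPM in control cells. IMPDH2, which makes guanine nucleotides, was at 218 ± 11.2 CPM in TTC3 shRNA cells and 103 ± 12.4 CPM in control cells (SD, n = 3 each). All 3 genes lay above all controls in each TTC3 shRNA library, at log2 fold changes of 1.39 ± 0.07, 0.76 ± 0.07 and 1.08 ± 0.10 (adjusted p at most 0.000358, edgeR). TERT, the telomerase catalytic subunit, fell by 1.23 ± 0.27 at a low level, and TFRC, the transferrin receptor, fell by 0.26 ± 0.07 (adjusted p = 0.0123 and 0.0259, edgeR).

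In the wider MYC network 7 of 8 other genes were tested. MYCL, a MYC paralogue, was at 1.15, 1.46 and 1.22 CPM in TTC3 shRNA libraries, against 3.26, 3.74 and 3.01 CPM in control libraries. MXI1, a repressor of the MXD family, was at 21.8, 17.3 and 16.6 CPM in TTC3 shRNA libraries, against 25.2, 25.7 and 26.7 CPM in control libraries. MXD3 went the other way, at 8.57, 12.5 and 14.0 CPM in TTC3 shRNA libraries, against 7.40, 8.19 and 7.44 CPM in control libraries. In none of the 3 did the groups overlap. The log2 fold changes were -1.39 ± 0.16 for MYCL, -0.48 ± 0.11 for MXI1 and 0.60 ± 0.18 for MXD3 (SE, adjusted p = 0.000949, 0.0173 and 0.0384, edgeR).

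**Figure D5:**
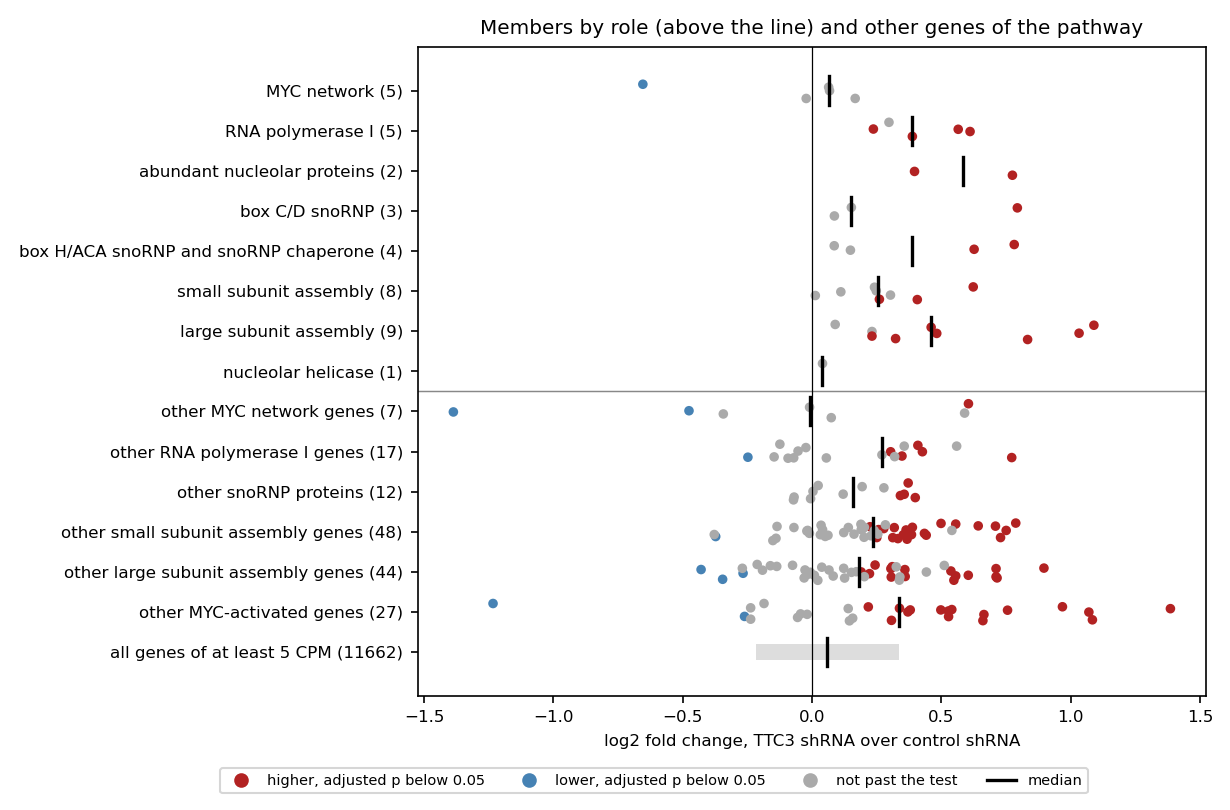
Log2 fold change (TTC3 shRNA over control shRNA) of each member by role, above the grey line, and of the other tested pathway genes, below it, with the number of genes in brackets. Red and blue points are higher and lower past the gene test and black bars are medians: these are 0.46 for large subunit members and 0.06 for all 11662 genes of at least 5 CPM, whose interquartile range (grey bar) spans -0.22 to 0.33.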

How the data were processed

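The authors deposited estimated counts per gene and per transcript for 6 libraries, as unscaled whole numbers. StringTie, STAR and Trim Galore with build hg38 were named, per the submitters' processing notes. Tool versions, annotation, strand use and the handling of overlapping genes are unknown here (not given in the sources used). Libraries were strand-specific after removal of ribosomal RNA, per the labels' protocols, and were grouped and numbered by title.

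A quasi-likelihood model without a block was fitted over all 6 libraries with edgeR 4.0.16 (R 4.3.3) and TMM scaling, on the 24325 genes or 53805 transcripts that filterByExpr kept at its defaults. Genes passed at an adjusted p (Benjamini-Hochberg) below 0.05. Fold changes divide TTC3 shRNA by control shRNA, with an SE taken as the log2 fold change over the root of its F statistic. On simulated data with known changes the gene test recovered more genes the larger their fold, and the transcript test missed the changed transcripts. Precision is limited mainly by the spread between libraries.

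Members, lists and the rule for named genes were chosen with earlier results of these data known. By that rule all 37 members are reported, CPM per library is given for MYC network members and members past the test, and up to 3 genes in each direction with the lowest adjusted p are named from each other list. Other CPM values per library were chosen after they were seen. Positions and transcripts came from GENCODE 29 on GRCh38, which held 58207 of 62700 genes and 98286 of 117688 transcripts by identifier. A main transcript was used where transcripts of known length held at least 80% of a gene's count (84.9% of tested genes). TPM was computed from transcript counts and lengths. Alternatives were other scalings and filters, DESeq2 1.42.0, limma-voom (limma 3.58.1), glmTreat with a fold of 1.5, a stricter adjusted p (0.01), a replicate block, trends with length or GC content removed, and each library left out.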

Additional observations from a re-analysis of the deposited data

How the results depend on the processing

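The median log2 fold change of the members was 0.25 to 0.34 without any 1 library, and it was 0.13 with library totals alone as the scaling. The members past the test numbered 10 to 34 without 1 library, 13 with library totals alone, 1 against a fold of 1.5 and 10 at an adjusted p of 0.01. Other alternatives gave 17 to 24. Over all tested genes the count was 4546 to 13739 without 1 library and 7874 with library totals alone. It was 2033 against a fold of 1.5, 4082 at an adjusted p of 0.01 and 6910 to 9799 with the other alternatives. The lowest of these last, 6910, was of 39887 genes tested without a filter, and 8165 of 24325 passed with the main settings. For the other pathway genes, 72 of which passed, the counts were, in the same order, 28 to 128, 50, 4, 27 and 58 to 92. Member transcripts past the test numbered 0 to 18 without 1 library, 0 with library totals alone, 2 with at least 50 counts in 3 libraries, 22 with DESeq2 and 2 with limma-voom. Over all tested transcripts these counts were, in the same order, 141 to 6765, 2105, 2320, 9143 of 53805 and 2471. The summed level of the 31 members per length, over all transcripts, was 1908 TPM in TTC3 shRNA cells and 1785 TPM in control cells. With effective lengths it was 1093 and 1050 TPM, and over protein-coding transcripts alone 3660 and 3116 TPM. The groups overlapped over all transcripts (1802 to 1997 TPM against 1761 to 1822 TPM) and with effective lengths (976 to 1229 TPM against 1023 to 1090 TPM). They did not overlap over protein-coding transcripts alone, a setting chosen after seeing the data.

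Some log2 fold changes changed sign, to values no lower than -0.15. The largest of them under the main settings were 0.24 for POLR1C, which had passed the test, 0.23 for PPAN and 0.17 for MXD4. With library totals alone MYC was at -0.063, MNT at -0.069, NOP56 at -0.045, NOLC1 at -0.043, UTP4 at -0.11, NAT10 at -0.015, GNL3 at -0.040 and DDX21 at -0.083. With the length trend removed MYC was at -0.034, POLR1C at -0.0054, NOP56 at -0.011, UTP4 at -0.086 and GNL3 at -0.046. With length and GC trends removed MYC was at -0.089, MXD4 at -0.047, MNT at -0.065, POLR1C at -0.016, NOP56 at -0.10, UTP4 at -0.067 and PPAN at -0.15. With at least 50 counts in 3 libraries UTP4 was at -0.0018. Without 1 library UTP4 was at -0.063 to 0.085 and DDX21 at -0.042 to 0.12, both lowest without TTC3 shRNA replicate 1. Why these moved was not tested.

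The replicate numbers were not shown to pair the libraries. Same-numbered deviations correlated at r = 0.14, 0.12 and 0.03, and those with different numbers at r = -0.13 to 0.06. With the replicate number as a block, 19 members, 6929 genes and 63 other pathway genes passed. Of all 53805 tested transcripts, those of members included, 0 passed. NOP2 and POLR1C lost the threshold in the gene test and RRP12 gained it (adjusted p = 0.0472, edgeR).

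Depth was similar in all libraries, and the spread among the TTC3 shRNA libraries sets the limit for most members. Transcript estimates share reads, so they are less certain than gene values. Settings meant for FPKM or TPM deposits were not needed, since counts were given.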

Other observations

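Introns of the members host small nucleolar RNAs, which guide modification of ribosomal RNA and so act in the same pathway. In GENCODE 29, 26 of them lay in 8 members, and 18 passed the filter on low counts. SNORD70, in NOP58, was the 1 past the test, with 26, 32 and 27 counts in TTC3 shRNA libraries 1, 2 and 3, against 14, 17 and 14 counts in control shRNA libraries (log2 fold change 1.04 ± 0.33, adjusted p = 0.0458, edgeR). None was lower past the test, and the median log2 fold change was -0.09. Among all tested genes 15.7% were higher and 17.8% lower, so 1 call among 18 was below that share. SNORD86, in NOP56, had the most counts, 638, 614 and 629 in TTC3 shRNA libraries, against 676, 787 and 682 in control shRNA libraries (-0.06 ± 0.11, adjusted p = 0.697, edgeR). Most of the others had fewer than 100 counts in every library, RNAs this short are poorly recovered by libraries of long RNA, and reads of a small nucleolar RNA and of its host intron cannot be told apart in these counts. SNORD20, in NCL, had 30, 27 and 46 counts in TTC3 shRNA libraries, against 27, 14 and 17 counts in control shRNA libraries, with no call (0.95 ± 0.39, adjusted p = 0.0991, edgeR), while NCL itself was higher.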
